A study of Mus musculus with 2 samples.

Results

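The Toll-like receptors were followed as 9 receptor genes, Tlr1, Tlr2, Tlr3, Tlr4, Tlr6, Tlr7, Tlr8, Tlr9 and Tlr13, together with Myd88, the adaptor through which most of them signal. These 10 genes were picked by symbol from the 55357 genes listed, and each matched 1 gene identifier. They were measured in single cells that carried the leukocyte antigen CD45, sorted live from tumours of MC38, a mouse colon carcinoma line. The host mice were of 2 genotypes. The first was SPP1fl/fl-Lyz2-icre, in which both Spp1 alleles are flanked by loxP sites and Cre is expressed from the Lyz2 locus, a gene of macrophages, monocytes and neutrophils. The other was SPP1fl/fl, named without Cre, so floxed Spp1 alleles were common to both. Below they are called Lyz2-icre and control. There was 1 library per genotype, the number and age of the mice were not stated, and no difference between genotypes had a replicate check. The 95% intervals hold counting error alone and leave out differences among cells and mice.

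Toll-like receptors are membrane proteins of innate immune cells that bind conserved molecules of microbes and of damaged cells. TLR2, paired with TLR1 or TLR6, binds bacterial lipoproteins at the cell surface, and TLR4 with its partner MD-2 binds lipopolysaccharide. TLR3, TLR7, TLR8, TLR9 and the rodent receptor TLR13 sit in endosomes, where they meet double-stranded RNA, single-stranded RNA, DNA and bacterial ribosomal RNA. All but TLR3 recruit MyD88, which passes the signal through IRAK kinases and TRAF6 to NF-kB, and TLR3 uses the adaptor TRIF. Macrophages, monocytes and dendritic cells carry different sets of these receptors, with TLR3 best known in type 1 conventional dendritic cells and TLR7 and TLR9 in plasmacytoid dendritic cells.

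The Lyz2-icre library kept 13915 cells and the control library 8724 cells, with median depths of 6374 UMIs per cell in Lyz2-icre and 9379.5 in control, and 43 barcodes occurred in both. Cell types were gated on marker genes in single cells, and none of the 10 genes was a marker. Levels are in CPM (UMIs per 1000000 UMIs summed over the cells of a type in a library). The 3-prime chemistry counts 1 tag per captured transcript, so no scaling by gene length applies. Macrophages numbered 10082 in the Lyz2-icre library and 5620 in the control library, and the other 9 types with at least 50 cells in both libraries held 52 to 465 cells each. The type 1 conventional dendritic cells (cDC1, 39 in Lyz2-icre and 42 in control) and the plasmacytoid dendritic cells (14 in each) fell below that number, and were added after their values were seen. Gated macrophages held a median of 223 (Lyz2-icre) and 249.6 (control) macrophage-marker UMIs per 10000. The monocytes, neutrophils, dendritic cells, T cells and NK cells of both libraries held 4.39 to 30.6. The gates used these same markers, so this contrast was set by the gates and is no check of the name. Monocytes were the least distinct gate, since 257 of 465 Lyz2-icre and 131 of 329 control monocytes held the fewest markers allowed. Spp1 in macrophages stood at 3.38 CPM in the Lyz2-icre library and 664 CPM in the control library, and Lyz2, the gene that carries the Cre, at 4026 CPM in Lyz2-icre and 11481 CPM in control.

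Promoter sequence is shown for the members with the lowest and the highest ratio in macrophages, Tlr2 and Tlr3, for Tlr13 as a phagocyte receptor on the X chromosome, and for Myd88. RefSeq (GRCm38.p6, the build also known as mm10) gave 10 windows for 8 of the 10 genes, 2 each for Tlr1 and Tlr6. The 250 bases before each start were searched on both strands for GGGA followed by any 4 bases and CC (NF-kB), for GAAA, any 2 bases and GAAA (interferon regulatory factors), and for GAGGAAG (PU.1, the myeloid lineage factor). Of 32851 such windows, 17.6% held the first, 2.98% the second and 10.6% the third. Bases within GENCODE vM21 exons were left out of what is printed, and capitals mark a match.
Tlr2 (chr3:83841768-83841858, minus strand): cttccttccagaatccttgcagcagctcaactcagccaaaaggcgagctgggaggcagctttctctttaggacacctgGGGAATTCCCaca
Tlr3 (chr8:45410381-45410452, minus strand): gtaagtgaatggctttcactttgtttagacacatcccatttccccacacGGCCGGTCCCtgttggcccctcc
Tlr13 (chrX:106143025-106143203, plus strand): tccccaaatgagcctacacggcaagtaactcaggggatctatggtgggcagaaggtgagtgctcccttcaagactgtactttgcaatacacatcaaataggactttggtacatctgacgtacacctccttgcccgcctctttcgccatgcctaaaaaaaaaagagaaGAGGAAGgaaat
Myd88 (chr9:119340042-119340268, minus strand): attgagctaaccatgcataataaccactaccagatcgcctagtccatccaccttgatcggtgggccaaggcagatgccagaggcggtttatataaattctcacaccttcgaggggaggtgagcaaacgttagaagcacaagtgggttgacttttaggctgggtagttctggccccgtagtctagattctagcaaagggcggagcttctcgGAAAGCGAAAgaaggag
The Tlr2 match lies 172 bases before the start and reads as the NF-kB letters on either strand. Tlr3 had a match 23 bases before its start and another, in an exon and not shown, at 211 bases. Tlr13 held the PU.1 letters at 83 bases and Myd88 the interferon regulatory factor letters at 40 bases. Of 2 Tlr6 windows 1 held 2 overlapping interferon regulatory factor matches, 1 of 2 Tlr1 windows and the Tlr9 window held 1 PU.1 match each, and the other Tlr1 and Tlr6 windows and the Tlr8 window held none. The Tlr2 and Tlr13 stretches lie directly upstream of the annotated gene, and those of Tlr3 and Myd88 between annotated exons of the vM21 gene models. The matches are letters found in a window, and binding was not measured.

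Tlr2 was the receptor with most tags in each of the 10 leukocyte types of at least 50 cells, and its highest levels were those of phagocytes. Monocytes held 263 (241 to 287) CPM in the Lyz2-icre library and 305 (284 to 327) CPM in the control library, with the interval in brackets. Macrophages held 199.9 (197 to 203) CPM in Lyz2-icre and 279 (274 to 283) CPM in control, and neutrophils 234 (128 to 392) CPM in Lyz2-icre and 204 (165 to 249.9) CPM in control. The order monocyte, macrophage, neutrophil held beyond counting error in the control library, whereas the first 3 places overlapped in the Lyz2-icre library. Type 2 conventional dendritic cells (cDC2) came next, with 88.3 CPM in Lyz2-icre and 139.9 CPM in control. Macrophages, the most numerous type, held 67.3% to 86.5% of all UMIs of each of the 10 genes in a library.

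The partners of TLR2 were lower. Tlr1 in macrophages was 19.5 (18.5 to 20.5) CPM in the Lyz2-icre library and 23.1 (21.9 to 24.4) CPM in the control library, above monocytes (Lyz2-icre 16.4, control 11.3 CPM) beyond counting error in the control library only. Neutrophils held 16.7 CPM of Tlr1 in Lyz2-icre and 36.6 CPM in control, from 1 UMI in Lyz2-icre and 17 UMIs in control. The control value was the highest of that library, with an interval that overlapped that of macrophages. Regulatory T cells also carried Tlr1, at 23.6 CPM in Lyz2-icre and 15.5 CPM in control from 7 UMIs in Lyz2-icre and 9 UMIs in control. Tlr6 was highest in neutrophils, with 50.1 (10.3 to 146) CPM in Lyz2-icre and 36.6 (21.3 to 58.6) CPM in control, and stood at 7.95 CPM in Lyz2-icre and 7.54 CPM in control macrophages. Tlr1 and Tlr6 are neighbours on the minus strand of chromosome 5 (64924679 to 64933563 and 64952031 to 64960097, mm10) and close relatives, and how the authors' counting treated reads that match both is not given in the sources used here.

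Tlr4, the lipopolysaccharide receptor gene (chromosome 4, 66827584 to 66930284, mm10), was highest in neutrophils. Neutrophils held 184 (91.7 to 329) CPM in the Lyz2-icre library and 121 (91.0 to 156) CPM in the control library, apart from every other type in both. Control monocytes followed with 43.7 CPM, against 34.8 CPM in Lyz2-icre monocytes, and macrophages had 37.9 CPM in Lyz2-icre and 31.4 CPM in control. Fibroblast or tumour cells that had passed the sort (278 in Lyz2-icre, 174 in control) held more Tlr4 than Tlr2, beyond counting error in the control library only. They had 61 Tlr4 and 52 Tlr2 UMIs in Lyz2-icre and 78 Tlr4 and 41 Tlr2 UMIs in control. Dendritic cells had little Tlr4, between 0.867 and 7.36 CPM in cDC1, cDC2 and migratory dendritic cells. Only 52 Lyz2-icre neutrophils were gated, with a median of 1126 UMIs, against 150 control neutrophils with 2594, so their values rest on few tags.

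**Figure D1:**
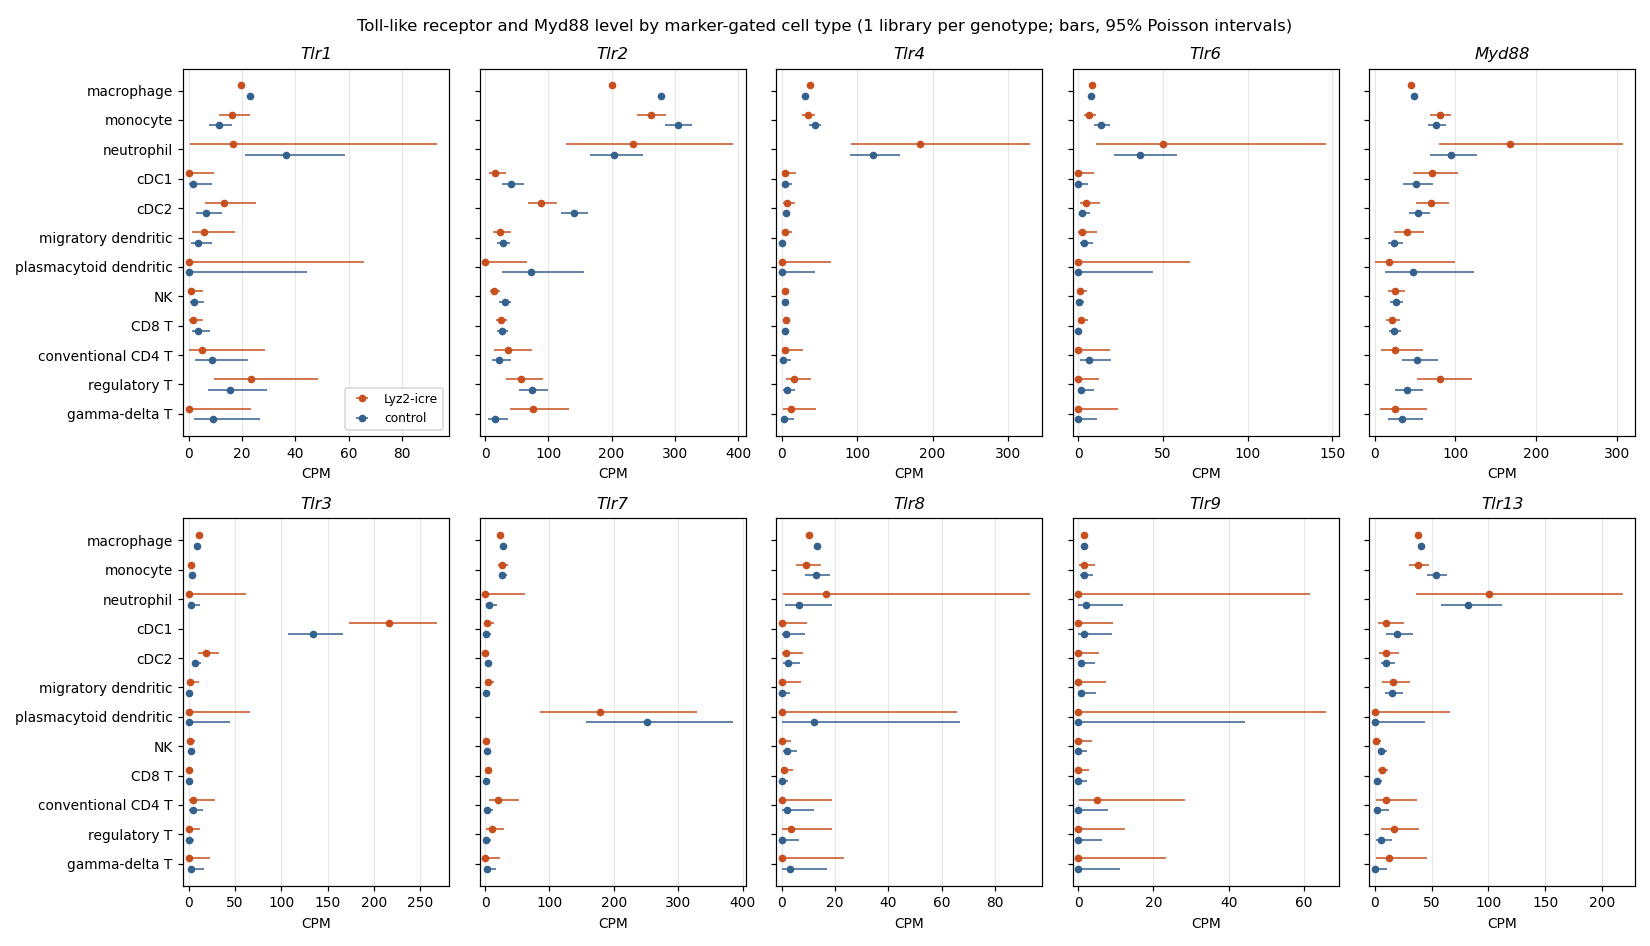
Levels in CPM (x axis, linear, a scale per gene) of the 10 genes in 12 gated cell types (y axis), with the Lyz2-icre library above the control library and 95% Poisson intervals as bars. Tlr3 stood out in cDC1 at 216 CPM in Lyz2-icre and 135 CPM in control, and Tlr7 in plasmacytoid dendritic cells at 179 CPM in Lyz2-icre and 252 CPM in control.

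The endosomal receptors divided the dendritic cells. Tlr3, which senses double-stranded RNA, reached 216 (173 to 268) CPM in Lyz2-icre cDC1 and 135 (107 to 167) CPM in control cDC1, from 85 UMIs in Lyz2-icre and 84 UMIs in control. In cDC1, 66.7% (Lyz2-icre) and 64.3% (control) of cells held a Tlr3 UMI, or 25.6% (Lyz2-icre) and 27.5% (control) with each cell thinned to 2000 UMIs. It accounted for 86.7% (Lyz2-icre) and 65.1% (control) of the UMIs of the 9 receptors there. Elsewhere Tlr3 was at most 19.1 CPM (Lyz2-icre cDC2), and CD8 T and regulatory T cells held no Tlr3 UMI in either library, where 3 UMIs would be 2.29 CPM in Lyz2-icre and 1.81 CPM in control for CD8 T cells and 10.1 CPM in Lyz2-icre and 5.17 CPM in control for regulatory T cells.

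Tlr7, a sensor of single-stranded RNA, was at 179 (85.7 to 329) CPM in Lyz2-icre and 252 (156 to 386) CPM in control plasmacytoid dendritic cells, from 10 UMIs in Lyz2-icre and 21 UMIs in control, in 14 cells each. Monocytes had 26.6 CPM in Lyz2-icre and 26.9 CPM in control and macrophages 22.4 CPM in Lyz2-icre and 27.9 CPM in control, which did not differ beyond counting error within either library. The cDC2 held 0 Tlr7 UMIs in Lyz2-icre and 5 in control, and cDC1 1 each. Tlr8, the neighbour of Tlr7 on the X chromosome, was found mainly in macrophages (Lyz2-icre 10.4, control 13.4 CPM) and monocytes (Lyz2-icre 9.22, control 12.9 CPM). Plasmacytoid dendritic cells held 0 Tlr8 UMIs in Lyz2-icre and 1 UMI in control (12.0 CPM). There 3 UMIs would be 53.6 CPM in Lyz2-icre and 36.0 CPM in control, so a Tlr8 level like that of macrophages was not detectable.

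Tlr13, which recognises bacterial ribosomal RNA, was spread over the phagocytes. It measured 100.2 (36.8 to 218) CPM in Lyz2-icre and 81.8 (57.9 to 112) CPM in control neutrophils, 38.4 CPM in Lyz2-icre and 54.2 CPM in control monocytes, and 38.4 CPM in Lyz2-icre and 40.3 CPM in control macrophages. Migratory dendritic cells had 15.8 CPM in Lyz2-icre and 15.6 CPM in control. Tlr9, the DNA sensor, was near the limit of detection. Its highest level rested on 1 UMI in conventional CD4 T cells, macrophages held 109 UMIs in Lyz2-icre and 91 UMIs in control (Lyz2-icre 1.47, control 1.54 CPM), and plasmacytoid dendritic cells held none, where 3 UMIs would be 53.6 CPM in Lyz2-icre and 36.0 CPM in control. At this depth a Tlr9 level in plasmacytoid dendritic cells below those limits was not detectable.

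Myd88 was found in both libraries in each of the 10 types of at least 50 cells. Levels reached 167 (80.1 to 307) CPM in Lyz2-icre and 94.7 (68.8 to 127) CPM in control neutrophils and 80.4 CPM in Lyz2-icre and 76.4 CPM in control monocytes. Among dendritic cells, cDC1 held 71.3 CPM in Lyz2-icre and 51.3 CPM in control. The cDC2 held 69.1 CPM in Lyz2-icre and 54.0 CPM in control. Both were above macrophages (Lyz2-icre 45.4, control 48.2 CPM), beyond counting error in the Lyz2-icre library only. Migratory dendritic cells stood below macrophages, at 39.6 CPM in Lyz2-icre and 24.3 CPM in control, beyond counting error in the control library only. Plasmacytoid dendritic cells held 17.9 CPM in Lyz2-icre and 48.0 CPM in control, on 1 UMI in Lyz2-icre and 4 UMIs in control. NK cells (Lyz2-icre 25.7, control 26.3 CPM) and CD8 T cells (Lyz2-icre 21.4, control 24.1 CPM) had less than macrophages in both libraries.

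In lymphocytes, levels of the receptors have to be read beside free RNA, which gives tags to cells that do not make them. Tlr2 was 13.8 CPM in Lyz2-icre and 30.8 CPM in control NK cells and 24.5 CPM in Lyz2-icre and 26.5 CPM in control CD8 T cells, beside 16.6 CPM in Lyz2-icre and 15.6 CPM in control fibroblast or tumour cells. With each cell thinned to 2000 UMIs, 3.12% (Lyz2-icre) and 4.08% (control) of NK cells and 1.48% (Lyz2-icre) and 2.92% (control) of fibroblast or tumour cells held a Tlr2 UMI. Without thinning those shares were 4.67% (Lyz2-icre) and 13.5% (control) in NK cells and 13.7% (Lyz2-icre) and 13.2% (control) in fibroblast or tumour cells, at median depths of 4307 UMIs in Lyz2-icre and 6648 UMIs in control NK cells and 9699.5 UMIs in Lyz2-icre and 13205 UMIs in control fibroblast or tumour cells. The macrophage gene C1qa stood at 145 CPM in Lyz2-icre and 144 CPM in control NK cells, against 5039 CPM in Lyz2-icre and 4774 CPM in control macrophages. For each 1000 C1qa UMIs there were 95.2 Tlr2 UMIs in Lyz2-icre and 214 in control NK cells, and 39.7 in Lyz2-icre and 58.4 in control macrophages. The part of free RNA from macrophages or other phagocytes in the lymphocyte levels was not tested. Regulatory T cells stood higher, with 57.3 CPM in Lyz2-icre and 74.0 CPM in control of Tlr2, and also held the phagocyte gene Lyz2 at 2105 CPM in Lyz2-icre and 1467 CPM in control, against 195 CPM in Lyz2-icre and 1068 CPM in control NK cells.

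The genes whose log2 levels tracked each receptor most closely were ranked over 11 cell types in both libraries (22 points, which share libraries and, within a library, free RNA). For Tlr2 they were Sirpa (r = 0.940) and Itgam (r = 0.933), both myeloid surface proteins (SIRP-alpha and the integrin CD11b). Tlr8 tracked Zeb2os (r = 0.956) and Fcgr3 (r = 0.909), an antisense transcript at the Zeb2 locus and an Fc receptor of phagocytes (whether reads were counted by strand is not given in the sources used here). The nearest to Tlr3 were Fam149a (r = 0.954) and Pianp (r = 0.932), to Tlr4 Atp6v1e1 (r = 0.965) and Tpd52 (r = 0.962), and to Tlr13 Tnfaip2 (r = 0.931) and Ftl1 (r = 0.928). Tlr6 was nearest to Tasl (r = 0.954) and Cd300lb (r = 0.945), Tlr7 to Pla2g15 (r = 0.910) and Cndp2 (r = 0.868), Tlr1 to Slc15a3 (r = 0.853) and Ninj1 (r = 0.836) and Myd88 to Dgat2 (r = 0.912) and Sec24b (r = 0.907). For Tlr9, whose values rest on a handful of UMIs, the top r was 0.712.

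In macrophages none of the 8 members at 10 CPM or more differed by 1.5-fold between the genotypes. Of all 7906 genes at that level, 2.04% lay past 1.5-fold with an interval clear of 1 (43 higher and 118 lower in the Lyz2-icre library). Within that range the members differed from each other. Tlr2 was lowest relative to control, at 199.9 CPM in Lyz2-icre macrophages against 279 CPM in control macrophages (ratio of Lyz2-icre to control 0.717 with an interval of 0.702 to 0.733, log2 -0.47; in later brackets the interval follows the ratio), and 1.68% of all tested genes had a log2 ratio as low. The counts behind it were 14779 UMIs in Lyz2-icre and 16515 UMIs in control, at median depths of 6848 UMIs in Lyz2-icre and 10070.5 UMIs per cell in control. A Tlr2 UMI was found in 61.2% (Lyz2-icre) and 77.7% (control) of macrophages, and after thinning to 2000 UMIs in 30.7% (Lyz2-icre) and 39.1% (control).

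The other members lay on both sides of 1. Tlr4 and Tlr3 were higher in Lyz2-icre macrophages: Tlr4 at 37.9 CPM in Lyz2-icre against 31.4 CPM in control (ratio 1.21, 1.14 to 1.28), and Tlr3 at 11.7 CPM in Lyz2-icre against 9.16 CPM in control (ratio 1.27, 1.14 to 1.42). Tlr1, Tlr7 and Tlr8 were lower, with Tlr1 at 19.5 CPM in Lyz2-icre against 23.1 CPM in control (ratio 0.844, 0.783 to 0.909). Tlr7 stood at 22.4 CPM in Lyz2-icre against 27.9 CPM in control (ratio 0.805, 0.752 to 0.863) and Tlr8 at 10.4 CPM in Lyz2-icre against 13.4 CPM in control (ratio 0.777, 0.703 to 0.859). Myd88 (ratio 0.943, 0.896 to 0.991) and Tlr13 (ratio 0.954, 0.903 to 1.01) were close to equal, and so were Tlr6 (ratio 1.05, 0.931 to 1.195) and Tlr9 (ratio 0.960, 0.720 to 1.28), which lay under 10 CPM. The median log2 ratio of the 8 members was -0.14, against -0.01 over all 7906 genes.

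**Figure D2:**
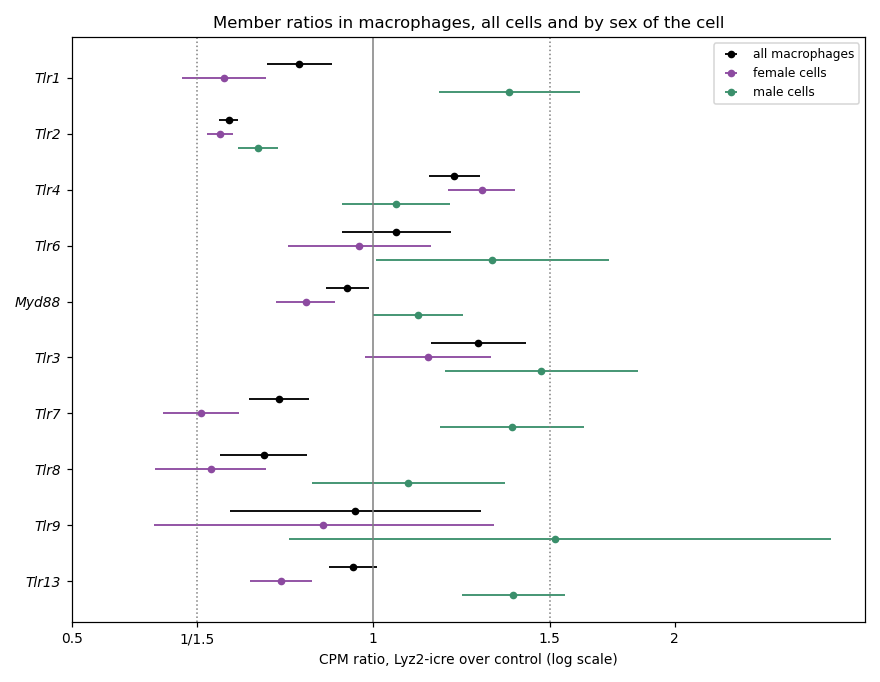
CPM ratios in macrophages, Lyz2-icre over control (x axis, log scale), for the 10 genes in all macrophages (black) and in cells taken as female (purple) or male (green), with 95% counting intervals and dotted lines at 1.5-fold either way. Tlr2 lay below 1 in all 3 sets, at 0.717, 0.703 and 0.767, while Tlr1, Tlr7 and Tlr13 had intervals below 1 in female and above 1 in male cells.

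Macrophages were split further into 9 clusters that each held at least 100 gated cells per library, made without the 10 genes and numbered here by their Tlr2 level over both libraries. Cluster 1 was led by Lsmem1, the inflammatory cytokine gene Il1b and Nrg1, cluster 2 by the interferon-gamma-type genes Cxcl11 and Iigp1, and cluster 7 by the type I interferon-response genes Rsad2 and Ifit3. Cluster 5 was led by cell-cycle genes such as Top2a, cluster 6 by Gas6 and Stab1, cluster 8 by heat-shock genes such as Hspb1, and cluster 9 by Rnase2a, Retnla and Arg1. Cluster 3 was led by Ccl17 and Ear2, and cluster 4 by immunoglobulin transcripts, Dnase1l3 and Cxcl9. With 1 library per genotype, clusters are given for their levels and not as cell types.

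Tlr2 was lower in the Lyz2-icre library in all 9 clusters, with each interval below 1. Cluster 1 had 280.3 CPM in Lyz2-icre cells against 368 CPM in control cells (ratio 0.761, 0.717 to 0.807), and cluster 8, where both libraries had their lowest value (with intervals that overlap those of cluster 9), 166 CPM in Lyz2-icre against 212 CPM in control (ratio 0.784, 0.725 to 0.848). The 9 ratios ran from 0.681 in cluster 7 to 0.800 in cluster 2. With each cluster given its control share of UMIs in both libraries, the Tlr2 ratio was 0.748, against 0.714 over the same clusters as they stood. Tlr4 was higher in the Lyz2-icre library in all 9 clusters, from 1.07 to 1.36, with 6 intervals above 1.

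Levels of Tlr7 and Tlr3, like those of Tlr2 and Tlr4, ranged further across clusters than between genotypes within a cluster. Tlr7 ranged from 4.91 CPM in Lyz2-icre and 9.70 CPM in control cells of cluster 3 to 49.9 CPM in Lyz2-icre and 55.6 CPM in control cells of cluster 6. The Tlr7 interval of cluster 6 overlapped that of cluster 7 in both libraries. Cluster 6 held 6.12% of Lyz2-icre macrophages and 21.4% of control macrophages, and at control shares the Tlr7 ratio was 0.903 in place of 0.807. Tlr1 and Tlr13 were likewise highest in cluster 6, with Tlr13 at 68.7 CPM in Lyz2-icre and 61.1 CPM in control and Tlr1 at 31.7 CPM in Lyz2-icre and 38.6 CPM in control. The Tlr1 interval overlapped those of other clusters, among them cluster 4, in both libraries. For Tlr13 the interval overlapped those of clusters 7 and 9 in the control library only. Tlr3 was highest in cluster 7, the one with type I interferon-response genes, at 38.8 CPM in Lyz2-icre and 42.6 CPM in control, and 5.57 to 23.2 CPM in the other Lyz2-icre clusters and 5.58 to 12.3 CPM in the other control clusters. Myd88 was highest in clusters 7 and 2, at 75.0 CPM in Lyz2-icre and 83.6 CPM in control cells of cluster 7 and 68.3 CPM in Lyz2-icre and 83.1 CPM in control cells of cluster 2, and lowest in cluster 8 at 24.8 CPM in Lyz2-icre and 29.7 CPM in control.

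**Figure D3:**
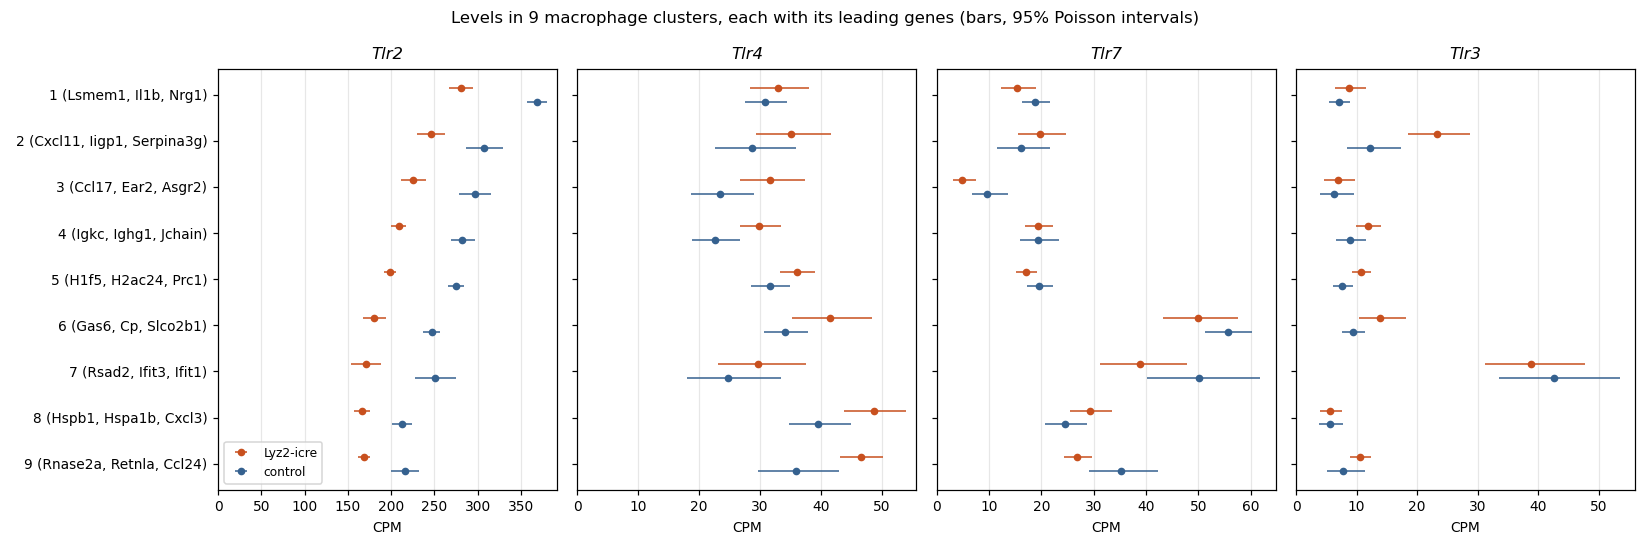
Levels in CPM (x axis) of Tlr2, Tlr4, Tlr7 and Tlr3 in 9 macrophage clusters (y axis, with leading genes), Lyz2-icre above control, with 95% Poisson intervals. Lyz2-icre lies left of control for Tlr2 in all 9 clusters and right of it for Tlr4 in all 9. Tlr7 peaks in cluster 6, with an interval that overlaps that of cluster 7, and Tlr3 in cluster 7, in both libraries.

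Tlr7 (167304929 to 167330558), Tlr8 (167242696 to 167264329) and Tlr13 (106143204 to 106160493) lie on the X chromosome of mm10, and both libraries held cells of both sexes, so macrophages were also compared by the sex of the cell (Xist without Y-linked UMIs, or the reverse). There were 5794 female and 1885 male macrophages in the Lyz2-icre library, and 3372 female and 1363 male in the control library. In the Lyz2-icre library female macrophages had 22.9 CPM of Tlr7 and male macrophages 22.4 CPM, a female over male ratio of 1.03 (0.906 to 1.16). In the control library female macrophages had 34.1 CPM and male macrophages 16.2 CPM, a female over male ratio of 2.10 (1.83 to 2.41). No member was past 1.5-fold between the sexes in the Lyz2-icre library, where 2.48% of all genes were. In the control library 3 members were, Tlr7, Tlr8 and Tlr1, as were 4.64% of all genes there.

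Tlr1 lies on chromosome 5, so the split was not limited to X-linked genes. Its female over male ratio was 0.793 (0.699 to 0.900) in Lyz2-icre macrophages and 1.53 (1.33 to 1.76) in control macrophages. Tlr8 had ratios of 0.967 (0.809 to 1.16) in Lyz2-icre and 1.52 (1.27 to 1.83) in control macrophages, and Tlr13 of 0.833 (0.760 to 0.913) in Lyz2-icre and 1.42 (1.28 to 1.58) in control macrophages. Tlr2 was closer to 1 in both, at 0.924 (0.887 to 0.963) in Lyz2-icre and 1.01 (0.973 to 1.05) in control macrophages. Cluster 6, high in Tlr7, Tlr1 and Tlr13, made up 6.14% of female and 7.43% of male Lyz2-icre macrophages, and 30.0% of female and 7.41% of male control macrophages. With equal cluster weights for the sexes, the control female over male ratio of Tlr7 was 1.63, with female cells higher in 9 of 9 clusters. The ratios of Tlr8 (1.44, higher in 8 of 9 clusters), Tlr1 (1.23, 9 of 9) and Tlr13 (1.25, 6 of 9) were under 1.5 with those weights. The number of mice of each sex was not stated, so sex and mouse cannot be told apart.

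**Figure D4:**
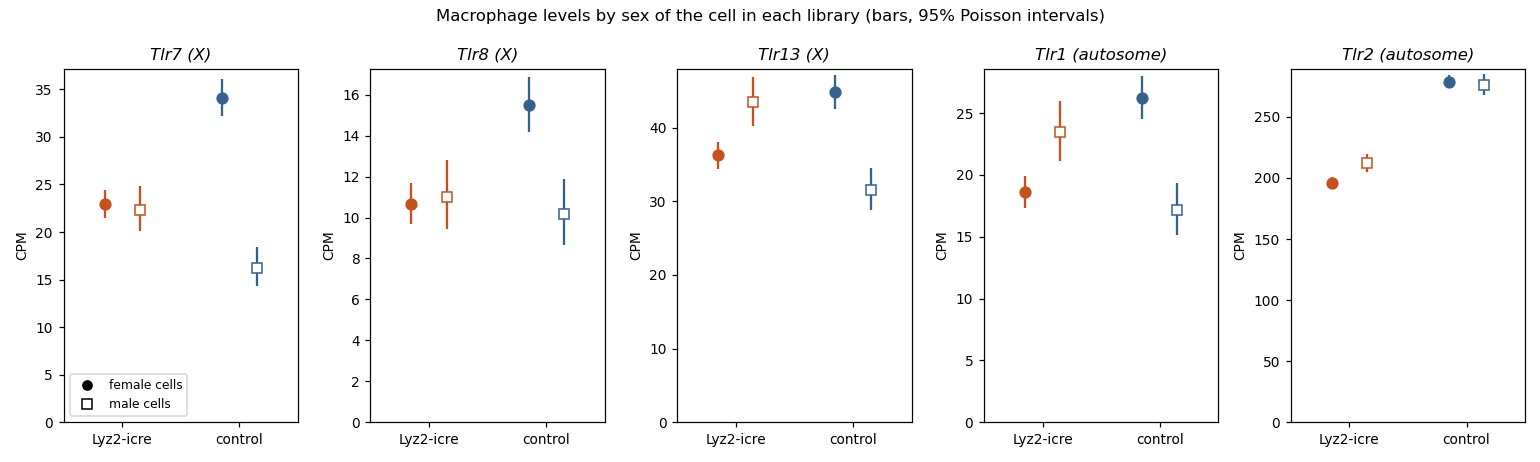
Macrophage levels in CPM (y axis, from 0) of 3 X-linked and 2 autosomal receptors in female (filled circles) and male (open squares) cells of the Lyz2-icre and control libraries, with 95% Poisson intervals. Control female and male cells are apart for Tlr7 (female 34.1, male 16.2 CPM), Tlr8, Tlr13 and Tlr1 but not for Tlr2.

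The genotype ratios of these genes lay on different sides of 1 in the sexes, a difference that was not tested. Tlr7 in Lyz2-icre over control was below 1 in female macrophages (ratio 0.673, 0.617 to 0.734) and above 1 in male macrophages (ratio 1.38, 1.17 to 1.63). Tlr1 (ratio 0.710, 0.644 to 0.782 in female cells, and ratio 1.37, 1.16 to 1.61 in male cells) and Tlr13 (ratio 0.809, 0.753 to 0.869 in female cells, and ratio 1.38, 1.23 to 1.55 in male cells) did likewise. Tlr2 was lower in both sexes, with 196 CPM in Lyz2-icre against 279 CPM in control female macrophages (ratio 0.703, 0.683 to 0.724) and 212 CPM in Lyz2-icre against 277 CPM in control male macrophages (ratio 0.767, 0.733 to 0.803). Tlr4 was 40.3 CPM in Lyz2-icre against 31.4 CPM in control female macrophages (ratio 1.28, 1.19 to 1.39), and in male macrophages the interval included 1 (ratio 1.05, 0.930 to 1.19). Tlr3 was the reverse, with an interval that included 1 in female macrophages (ratio 1.13, 0.982 to 1.31) and not in male macrophages (ratio 1.47, 1.18 to 1.84).

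Outside macrophages the counts were small. In monocytes Tlr2 was 263 CPM in Lyz2-icre against 305 CPM in control (ratio 0.862, 0.769 to 0.965), or a ratio of 1.10 with cells named by cluster, and Tlr6 was the 1 of 8 members past 1.5-fold, at 12 UMIs in Lyz2-icre against 34 UMIs in control (ratio 0.464, 0.219 to 0.918), where 10.1% of all genes were. No member of 7 passed in neutrophils (background 5.19%), where every interval included 1. In cDC2 Tlr2 was lower, at 88.3 CPM in Lyz2-icre against 139.9 CPM in control (ratio 0.631, 0.463 to 0.850), and Tlr3 higher on 13 UMIs in Lyz2-icre against 9 UMIs in control (ratio 2.67, 1.06 to 7.09), 2 of 5 members against 6.9% of genes. In cDC1 the same 2 genes passed, of 4 members and against 6.68% of genes. Here Tlr2 was 6 UMIs in Lyz2-icre against 26 UMIs in control (ratio 0.366, 0.123 to 0.910) and Tlr3 216 CPM in Lyz2-icre against 135 CPM in control (ratio 1.61, 1.17 to 2.20). With cells named by cluster instead of by gates the Tlr2 ratio in cDC1 was 1.05 and the Tlr3 ratio in cDC2 0.904, so neither of those directions held. The Tlr3 ratio in cDC1 then had an interval that included 1 (1.255, 0.782 to 2.025), as it had in female cells alone (1.39, 0.976 to 1.99). The Tlr2 ratio in cDC2 was 0.744 by cluster and 0.945 after thinning to 2000 UMIs, both short of 1.5-fold. No member of 3 passed in migratory dendritic cells (background 6.96%).

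In lymphocytes 3 comparisons passed. Tlr2 was 13.8 CPM in Lyz2-icre against 30.8 CPM in control NK cells, on 14 UMIs in Lyz2-icre and 48 UMIs in control (ratio 0.450, 0.229 to 0.829), 1 of 2 members against 6.78% of genes, beside 16.6 CPM in Lyz2-icre and 15.6 CPM in control fibroblast or tumour cells. Lyz2 differed in the same direction in NK cells, at 195 CPM in Lyz2-icre against 1068 CPM in control, and its part in the result was not tested. Myd88 in regulatory T cells was 80.8 CPM in Lyz2-icre against 39.6 CPM in control (ratio 2.04, 1.10 to 3.78) on 24 UMIs in Lyz2-icre and 23 UMIs in control, 1 of 6 members against 5.82% of genes. Tlr2 in gamma-delta T cells was 12 UMIs in Lyz2-icre against 5 UMIs in control (ratio 4.98, 1.63 to 18.04), 1 of 4 members against 5.3% of genes. The 12 UMIs lay in 4 of 52 cells, and Lyz2 was also higher, at 1573 CPM in Lyz2-icre against 661 CPM in control, whose part in the result was not tested. With cells named by cluster, the Lyz2-icre gamma-delta T cells held no Tlr2 UMI, and in female cells alone the interval included 1 (ratio 1.78, 0.332 to 9.56). No member passed in CD8 T cells (of 2, background 7.63%) or in conventional CD4 T cells (of 4, background 4.97%).

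Around the receptors, the other genes of the pathway in macrophages were mostly within 1.5-fold. Of 69 listed, 59 stood at 10 CPM or more, and 6 of those were past 1.5-fold, all lower in the Lyz2-icre library. With median-of-ratios scaling 6 were lower and 2 higher, as they were without cluster 9, against 6 lower and 3 higher in female cells alone and 4 lower and 1 higher in male cells alone. Among all genes 43 were higher and 118 lower. The 59 had a median log2 ratio of -0.12, against -0.01 for all genes, and 44 of them lay below 0, as did 4284 of 7906 genes. No transcription factor of 8 was past 1.5-fold, and all but Irf7 had intervals below 1. Among them Nfkb1 (Lyz2-icre 141, control 200.2 CPM, ratio 0.704, 0.686 to 0.723) and Rel (Lyz2-icre 236, control 309 CPM, ratio 0.764, 0.749 to 0.780) were lowest, and Irf7 (Lyz2-icre 43.4, control 43.4 CPM, ratio 0.9996, 0.949 to 1.05) and Rela (Lyz2-icre 66.3, control 69.7 CPM, ratio 0.9504, 0.912 to 0.991) nearest to equal.

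Target genes made up 5 of the 6 genes past 1.5-fold. Ccl4 and Ccl3, chemokines of activated macrophages, were 403 and 165 CPM in Lyz2-icre macrophages against 805 and 328 CPM in control macrophages (ratios 0.501 and 0.502). The other 3 were Tnf (Lyz2-icre 99.96, control 179 CPM, ratio 0.560, 0.543 to 0.577), Il6 (Lyz2-icre 6.42, control 10.5 CPM, ratio 0.612, 0.542 to 0.691) and Il10 (Lyz2-icre 24.5, control 38.3 CPM, ratio 0.640, 0.601 to 0.681), named because the count was small. At the other end of the 12 target genes, Nos2 was at 22.8 CPM in Lyz2-icre and 15.7 CPM in control (ratio 1.45, 1.34 to 1.58) and Cxcl10 at 469.5 CPM in Lyz2-icre and 378 CPM in control (ratio 1.24, 1.22 to 1.26). Their median log2 ratio was -0.45, the lowest of the 8 roles.

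The sixth was an inhibitor, Nfkbia, which encodes the NF-kB-retaining protein I-kappaB-alpha, at 878 CPM in Lyz2-icre and 1367 CPM in control (ratio 0.642, 0.635 to 0.649). Nfkbiz (Lyz2-icre 431, control 624 CPM, ratio 0.692, 0.681 to 0.702) was the next lowest of 8 inhibitors, and Socs1 (Lyz2-icre 25.5, control 17.3 CPM, ratio 1.48, 1.37 to 1.59) and Tnip1 (Lyz2-icre 39.99, control 40.2 CPM, ratio 0.994, 0.941 to 1.05) were the highest. Co-receptors had a median log2 ratio of 0.23, with the lipid scavenger Cd36 at 23.3 CPM in Lyz2-icre and 15.7 CPM in control (ratio 1.48, 1.37 to 1.60) and Ly96, which encodes the TLR4 partner MD-2, at 40.6 CPM in Lyz2-icre and 30.0 CPM in control (ratio 1.35, 1.28 to 1.44). Cd14, the co-receptor that hands lipopolysaccharide to TLR4, was lowest at 1121 CPM in Lyz2-icre and 1275 CPM in control (ratio 0.879, 0.871 to 0.888), followed by Cd180 at 47.2 CPM in Lyz2-icre and 47.3 CPM in control (ratio 0.997, 0.948 to 1.05). Ly96 and Tlr4 were thus both higher, and Cd14 and Tlr2 both lower, in the Lyz2-icre library.

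Among genes at 10 CPM or more, chaperones, adaptors, kinases and endosomal proteases varied less. Unc93b1, which carries the endosomal receptors to their compartment, was at 404 CPM in Lyz2-icre and 433 CPM in control (ratio 0.933, 0.917 to 0.949), Cnpy3 at 50.7 CPM in Lyz2-icre and 61.2 CPM in control (ratio 0.827, 0.790 to 0.866) and the chaperone Hsp90b1 at 851 CPM in Lyz2-icre and 809 CPM in control (ratio 1.05, 1.04 to 1.06). Pik3ap1, the 1 adaptor at 20 CPM or more, was at 86.7 CPM in Lyz2-icre and 113 CPM in control (ratio 0.768, 0.742 to 0.794). Of the kinases and ligases at 20 CPM or more, Tbk1 (Lyz2-icre 31.6, control 37.3 CPM, ratio 0.848, 0.800 to 0.900) and Ikbke (Lyz2-icre 23.8, control 27.4 CPM, ratio 0.870, 0.813 to 0.932) were lowest, and Peli1 (Lyz2-icre 76.5, control 70.6 CPM, ratio 1.08, 1.04 to 1.13) and Irak1 (Lyz2-icre 72.1, control 71.3 CPM, ratio 1.01, 0.971 to 1.05) highest. Of the proteases that trim the endosomal receptors, those at 20 CPM or more were ranked. Ctsl (Lyz2-icre 461, control 387 CPM, ratio 1.19, 1.17 to 1.21) and Ctss (Lyz2-icre 2498, control 2280.1 CPM, ratio 1.10, 1.09 to 1.10) were highest. Ctsb (Lyz2-icre 1429, control 1443 CPM, ratio 0.991, 0.982 to 0.9995) and Lgmn (Lyz2-icre 1125, control 1074 CPM, ratio 1.05, 1.04 to 1.06) were lowest. Ctsk, under 10 CPM, was at 6.14 CPM in Lyz2-icre and 9.40 CPM in control (ratio 0.653, 0.576 to 0.741).

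**Figure D5:**
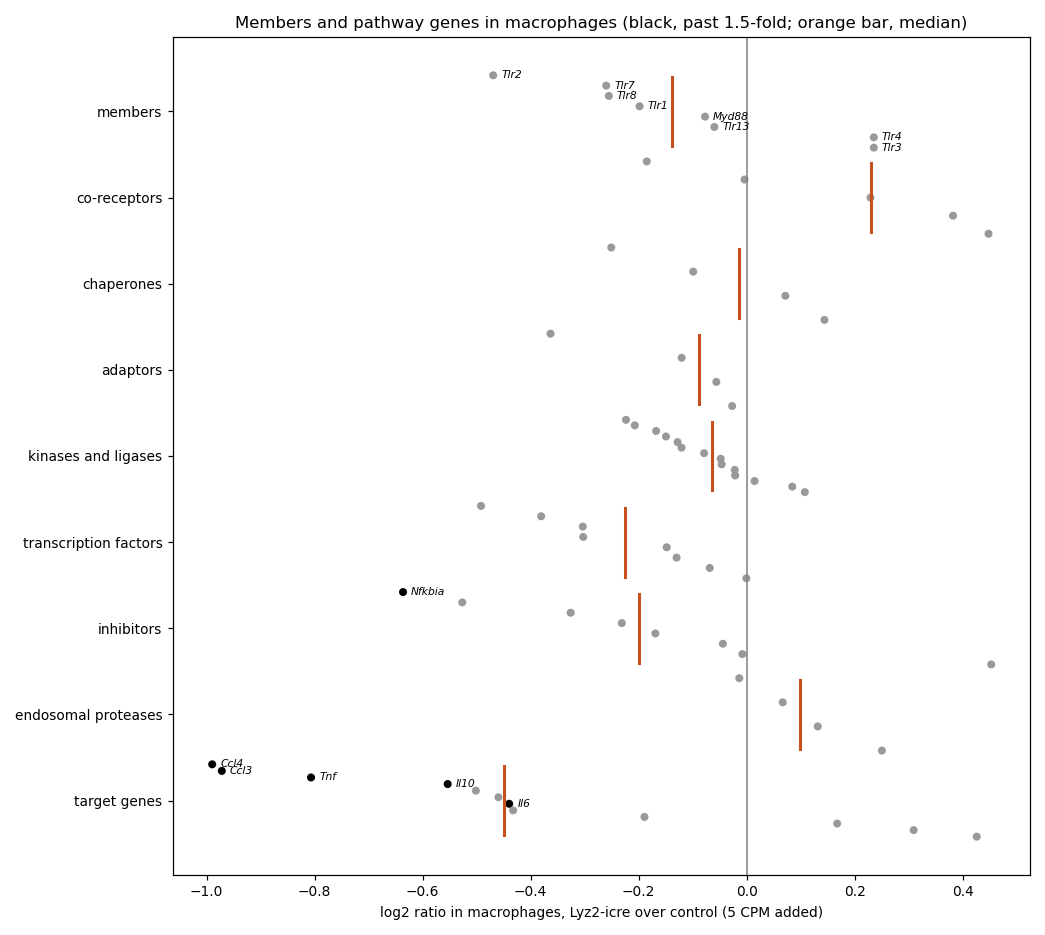
Log2 ratios in macrophages, Lyz2-icre over control with 5 CPM added to both (x axis), for the 8 members and 59 pathway genes at 10 CPM or more, grouped by role (y axis). Black points are past 1.5-fold and orange bars are medians. The 6 black points all lie below 0, 5 of them target genes, and Tlr2 is the lowest member at -0.47.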

How the data were processed

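The authors deposited raw UMI counts per gene and barcode for 2 libraries of the 10x 3-prime v3 kit, made with Cell Ranger 8.0.1 per the file headers, and with bcl2fastq 5.0.1 and mm10 per the submitters' processing notes. The annotation release is not given in the sources used here. The files held 13944 barcodes (Lyz2-icre) and 9154 barcodes (control), with 98275787 UMIs (Lyz2-icre) and 88529822 UMIs (control). A cell was kept if it had at least 300 genes, at least 500 UMIs and no more than 15% of its UMIs from mitochondrial genes. No doublet caller was run. Cells that met more than 1 gate (38 in Lyz2-icre, 60 in control), or the gate of another type than monocyte or cDC2 at the macrophage level of C1q UMIs (925 in Lyz2-icre, 626 in control), entered no cell type.

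Types were gated on 2 to 4 marker genes per cell, and macrophages needed 4 of 8 markers and 20 C1q UMIs per 10000. These limits were set after marker counts were seen. In the Lyz2-icre library 457 cells lay between 10 and 20 C1q UMIs per 10000 and 653 between 20 and 40, against 404 and 415 in the control library. The members, gene lists and markers were chosen with earlier results of these data known. Clusters came from the Leiden method of scanpy 1.11.5, in its igraph form, at resolution 1, without the members, Spp1 and Lyz2. Cells outside the C1q-high phagocyte clusters were clustered again at resolution 2, with T and NK cells apart from the others.

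Counts were summed per type and library and divided by that type's UMIs (CPM). Ratios are Lyz2-icre over control CPM with an exact conditional binomial interval, levels have exact Poisson intervals and shares exact Clopper-Pearson intervals (scipy 1.17.1), all 95%. Levels of 0 were read against a floor of 3 UMIs. Past 1.5-fold means that ratio with an interval clear of 1, at 10 CPM or more in the higher library. Log2 ratios have 5 CPM added. With 1 library per genotype no test was made. The scripts were tested on simulated data. The named genes were the members, for each role of the pathway list the 2 highest and 2 lowest log2 ratios in macrophages at 20 CPM or more, for each member the 2 genes with the most alike pattern among those at 50 CPM or more in a type, and Spp1 and Lyz2. Alternatives were other cell filters, gates, clusters, scalings, added CPM, thinning to 2000 UMIs and 1 sex at a time. A further 3 were chosen after seeing the data, macrophages without either of the 2 clusters that differed most in share, and with ungated phagocytes added.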

Additional observations from a re-analysis of the deposited data

Results flagged for a closer look

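In macrophages 4 members had a Lyz2-icre over control ratio with an interval below 1 in female cells and above 1 in male cells. These were Tlr7 at 0.673 in female and 1.38 in male cells, Tlr1 at 0.710 in female and 1.37 in male cells, Tlr13 at 0.809 in female and 1.38 in male cells, and Myd88 at 0.857 in female and 1.11 in male cells. The Myd88 interval in male cells barely cleared 1, at 1.0001 to 1.23. Tlr6, Tlr8 and Tlr9 lay on the same sides of 1, with an interval that included 1 in at least 1 sex. How many of all genes had intervals on opposite sides of 1 in the sexes was not counted. With control cluster weights, Myd88 in male cells was 46.2 CPM in Lyz2-icre and 46.4 CPM in control. With those weights male cells stayed higher in Lyz2-icre for Tlr7 (26.8, control 19.3 CPM), Tlr1 (22.8, control 19.9 CPM) and Tlr13 (46.0, control 34.2 CPM). Female cells stayed lower in Lyz2-icre for all 4. The differences between the sexes were not tested, and the number of mice of each sex was not stated. Tlr2 lay on different sides of 1 across cell types. It was 4.98 in gamma-delta T cells on 12 UMIs in Lyz2-icre and 5 in control, against 0.631 in cDC2, 0.450 in NK cells and 0.366 in cDC1. These differences between cell types were not tested either.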

How the results depend on the processing

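Over 12 alternatives the Tlr2 ratio in macrophages ran from 0.703 to 0.767, and no member passed 1.5-fold in macrophages under any of the 11 alternatives run for that count. The Tlr2 ratio moved most in male cells (0.767) and without cluster 9, the cluster most enlarged in the Lyz2-icre library (0.735). In male macrophages Tlr1 (1.37), Tlr7 (1.38), Tlr8 (1.08), Tlr13 (1.38) and Myd88 (1.11) turned above 1, and Tlr13 did so without cluster 6 (1.03). With cells named by cluster, Tlr3 in cDC2 (0.904), Tlr2 in gamma-delta T cells (0), Tlr2 in cDC1 (1.05) and Tlr2 in monocytes (1.10) turned, and so did Tlr2 in cDC1 after thinning (2.05). The cause was not tested. The 6 member calls in the 10 types became 2 with cells named by cluster, 4 with stricter marker gates, 3 in female cells (9 types) and 0 in male cells (4 types), where fewer cells were used. Under the stricter gates the intervals of Tlr3 in cDC2 (0.526 to 6.58) and Tlr2 in gamma-delta T cells (0.613 to 11.6) included 1. Tlr2 in cDC2 was 0.945 after thinning. By the thinned share of cells, 8 of 20 first places were the same, a setting in which Lyz2-icre neutrophils had too few deep cells. Control neutrophils were kept, and in the control library the first places of Tlr3, Tlr7, Tlr8 and Tlr9 changed. The 6 pathway genes past 1.5-fold, all lower, became 6 lower and 2 higher without cluster 9, 6 lower and 3 higher in female cells, 4 lower and 1 higher in male cells, 9 lower with no minimum level and 6 lower and 2 higher with median-of-ratios scaling, a scaling that put the median log2 ratio of all macrophage genes, with no CPM added, at 0.02 in place of -0.02. Of 192 ratios under alternatives, 162 lay within the counting interval of the reported ratio, 3 of them (Tlr6 in macrophages) on the other side of 1, and 30 lay outside it, 11 of them on the other side of 1. No paired analysis was possible because each genotype had 1 library. Tlr9 and, outside macrophages and monocytes, Tlr8 rested on too few UMIs to order cell types.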

Other observations

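The other receptors of the family were Tlr5, Tlr11 and Tlr12, none of which reached 10 CPM in macrophages. Tlr12, which in mice recognises a profilin of parasites, was among the leading genes of macrophage cluster 4, at 29.9 CPM in Lyz2-icre and 33.1 CPM in control. Over all macrophages it stood at 9.93 CPM in the Lyz2-icre library and 9.16 CPM in the control library, and in cDC1 at 15.3 CPM in Lyz2-icre and 17.6 CPM in control. NK cells held 8.90 CPM of Tlr12 in Lyz2-icre and 12.2 CPM in control. Plasmacytoid dendritic cells held more, at 53.6 CPM in Lyz2-icre and 36.0 CPM in control, on 3 UMIs in each library. Tlr11, the profilin receptor that acts with TLR12, was at 25.5 CPM in Lyz2-icre and 16.0 CPM in control cDC1, from 10 UMIs in each library. Tlr5, the flagellin receptor, was at 11.3 CPM in Lyz2-icre and 9.36 CPM in control monocytes.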
